A study of Mus musculus with 12 samples.

Results

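The genes described here are 10 members of the Notch pathway and of the ESAM-high programme of splenic type 2 conventional dendritic cells (cDC2), out of 19938 genes with a value. They were listed by name: the receptors Notch1, Notch2 and Notch4, the protease gene Adam10, the transcription factor gene Rbpj, the target genes Hes1, Nrarp and Dtx1, and the ESAM-high markers Esam and Cd4. Each gene was represented by the probe set that carried only its symbol and had the highest mean, and 9 of the 10 had signal enough to be tested.

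The series holds 12 GeneChip arrays of RNA from mature splenic dendritic cells of mice, isolated by sorting. The 6 groups were cDC2 and type 1 cells (cDC1) from Flt3 knockout (KO) mice, Flt3L KO mice and wild-type (WT) mice, with 2 arrays per group that the labels call biological replicates. Flt3 encodes a receptor tyrosine kinase needed for dendritic cell development, and Flt3l its ligand. All mice were studied at steady state, and all spleens were digested with collagenase B and DNAse; the sources used here give no ages, alleles, sorting gates or number of mice per array, so p-values measure only the spread between arrays.

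Notch receptors are activated by ligands on neighbouring cells. Bound receptors are cut by ADAM10 and then by gamma-secretase, and the freed intracellular domain enters the nucleus, binds RBPJ and switches on genes such as Hes1, Nrarp and Dtx1. In mouse spleen, cDC2 that carry the adhesion molecule ESAM depend on NOTCH2 and RBPJ, are often CD4 positive and sit near marginal zone cells that display the ligand DLL1.

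Values are intensities on the linear scale of the deposited table, and a difference is a log2 difference with its standard error (SE). A gene was called where limma gave an adjusted p under 0.05 over the 14953 genes tested. The sorted cells carried their own markers on every array. The 9 cDC2 markers summed to 8921 to 9603 on cDC2 arrays and 765 to 912 on cDC1 arrays. The 9 cDC1 markers summed to 5546 to 6027 on cDC2 arrays and 19633 to 21842 on cDC1 arrays. Most of the cDC1 marker sum on cDC2 arrays was Wdfy4, with group means of 3995 to 4580 there and 7276 to 7497 in cDC1. Flt3 itself read 351 to 371 on Flt3 KO arrays, against 1637 to 2456 on Flt3L KO arrays and 1742 to 2333 on WT arrays. Which exons its probes cover relative to the deleted part was not checked. Replicate 1 of WT cDC1 stood apart, with a lower quartile of 25.7 against 23.3 to 24.3 on the other 11 arrays. The WT cDC1 replicates had the widest spread of any group: the SD of their log2 differences over genes was 0.21, against 0.13 to 0.15 elsewhere.

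The RefSeq promoter table (build GRCm38.p6) held 8 windows for 7 of the members and none matched for Hes1, Esam and Cd4. The 250 bases before a start are shown for Rbpj, a member called between genotypes, and for Dtx1 and Notch4, the members of opposite cell-type pattern. Capitals mark the core motif of RBPJ binding sites, TGGGAA, searched on both strands (TTCCCA on the other).
Rbpj (chr5:53590096-53590345, plus strand): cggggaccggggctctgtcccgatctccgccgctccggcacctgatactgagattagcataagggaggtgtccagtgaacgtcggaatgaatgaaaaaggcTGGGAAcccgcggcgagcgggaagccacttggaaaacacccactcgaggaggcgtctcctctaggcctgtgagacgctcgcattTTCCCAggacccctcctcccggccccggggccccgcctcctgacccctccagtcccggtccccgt
Dtx1 (chr5:120711670-120711919, minus strand): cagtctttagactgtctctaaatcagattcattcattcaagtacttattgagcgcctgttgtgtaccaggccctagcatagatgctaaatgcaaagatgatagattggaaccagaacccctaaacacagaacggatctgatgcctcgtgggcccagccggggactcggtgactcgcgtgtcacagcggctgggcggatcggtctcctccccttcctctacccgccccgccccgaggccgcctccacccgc
Notch4 (chr17:34564045-34564294, plus strand): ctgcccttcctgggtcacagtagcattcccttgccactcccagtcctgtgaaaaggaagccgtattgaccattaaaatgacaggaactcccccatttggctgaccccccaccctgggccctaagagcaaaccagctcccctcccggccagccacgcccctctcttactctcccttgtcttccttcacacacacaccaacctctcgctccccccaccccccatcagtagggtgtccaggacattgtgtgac
Of the 7 members, 1 held the motif: Rbpj. Its window shown lies before a start inside the annotated gene (chr5:53555779-53657445), and no window lay at the gene's outermost start. The motif stood 149 bases before that inner start on the gene's strand and 65 bases before it on the other strand. A further Rbpj window, from a start further downstream, contained the second of these sites again. The motif occurs in 21.6% of the 32851 windows of this length, so its presence or absence is a description of these letters and not of binding.

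Across cell types, the receptors and RBPJ did not follow the ESAM-high markers. Notch2, the receptor on which ESAM-high cDC2 depend, lay between 1359 and 1562 in both cell types, Notch4 and Rbpj were lower in cDC2, and Dtx1, Esam and Cd4 were higher in cDC2, in all 3 genotypes. In Flt3 KO mice, 3 of the 9 tested members were called higher and 2 lower in cDC2 than in cDC1, beside 16.4% and 19.1% of all genes (35.5% either way). In Flt3L KO mice 3 were higher and 3 lower, beside 15.9% and 18.9% of all genes (34.8% either way). In WT mice 4 were higher and 2 lower, beside 18.4% and 21% of all genes (39.4% either way). A call as such was therefore common in this comparison.

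**Figure D1:**
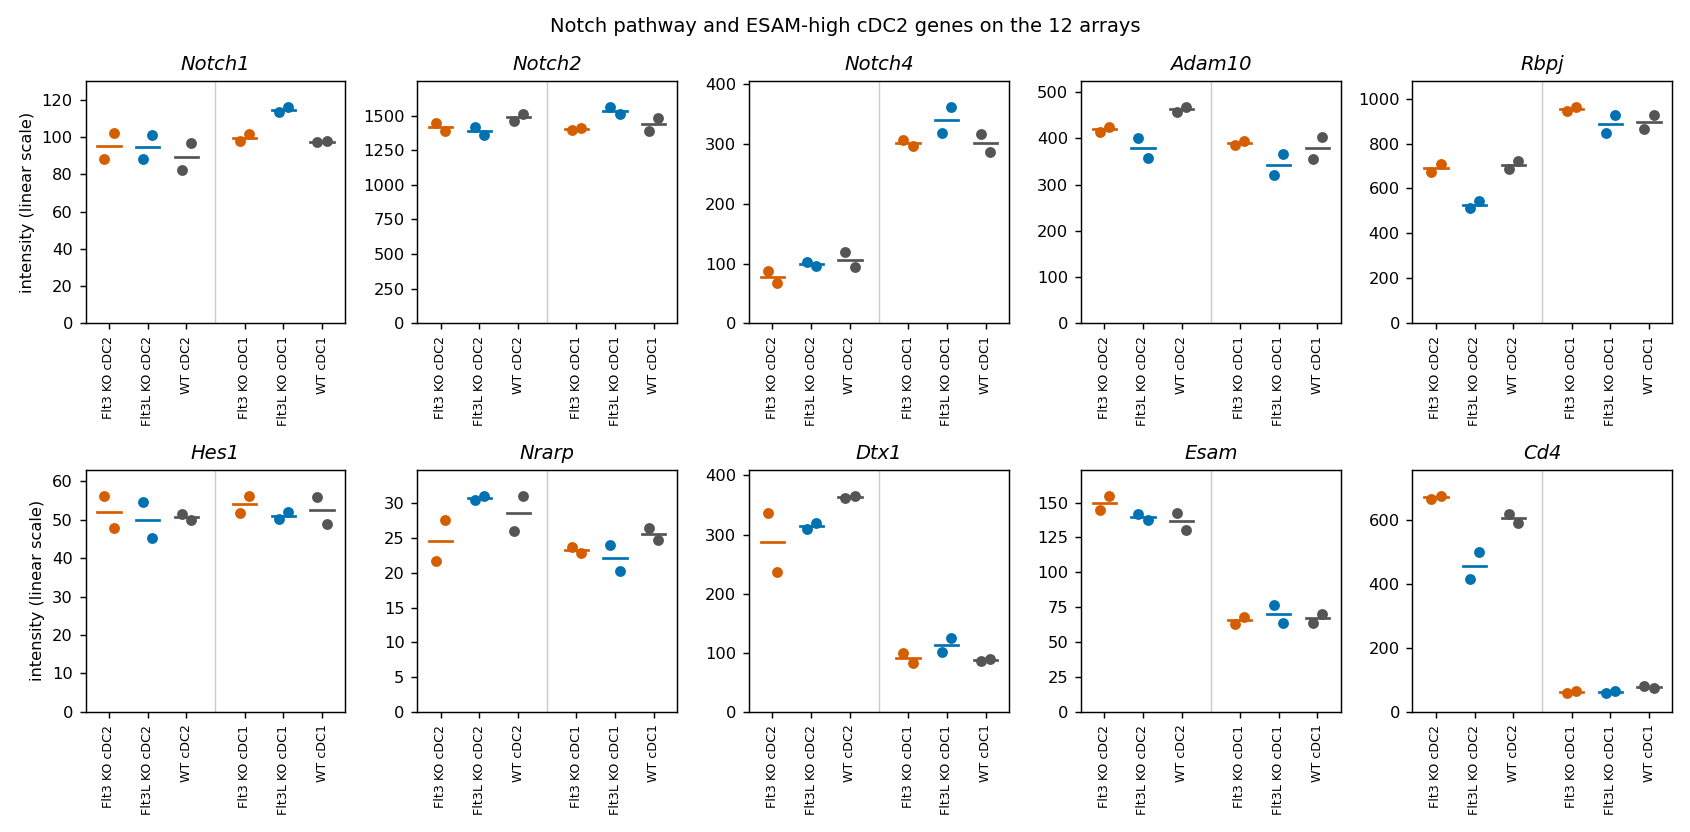
Intensity of the 10 members on each of the 12 arrays (linear scale, axis from 0), with cDC2 groups left of cDC1 groups; each point is an array and each bar the mean of the 2 arrays of a group. Dtx1, Esam and Cd4 sat higher on every cDC2 array than on any cDC1 array, Notch4 and Rbpj lower, and Notch2 lay between 1359 and 1562 throughout.

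Notch2 had the narrowest range of the members on the log2 scale, 0.20 over the 12 arrays. It read 1448 and 1389.7 in Flt3 KO cDC2, 1420.0 and 1359 in Flt3L KO cDC2, and 1464 and 1514 in WT cDC2. In cDC1 it read 1395 and 1410.3 in Flt3 KO mice, 1562 and 1510.1 in Flt3L KO mice, and 1386 and 1485 in WT mice. The cell types overlapped in Flt3 KO and WT mice, and the arrays of Flt3L KO cDC2 were below those of Flt3L KO cDC1. The difference, cDC2 minus cDC1, was 0.02 ± 0.07 in Flt3 KO mice, −0.14 ± 0.07 in Flt3L KO mice and 0.05 ± 0.07 in WT mice (SE), and limma called none of the 3. The 95% intervals were −0.14 to 0.18, −0.30 to 0.02 and −0.11 to 0.21.

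Notch1, a receptor best known for its part in T cell commitment, had a lower mean in cDC2 in each genotype, but the difference was called in only 1. Its cDC2 arrays read 88.5 and 102 in Flt3 KO mice, 88.2 and 101 in Flt3L KO mice, and 82.1 and 97.0 in WT mice. Its cDC1 arrays read 98.1 and 101 in Flt3 KO mice, 113 and 116 in Flt3L KO mice, and 97.1 and 97.9 in WT mice. The groups overlapped in Flt3 KO mice, and in the other genotypes both cDC2 arrays were below both cDC1 arrays. The difference, cDC2 minus cDC1, was −0.07 ± 0.10 in Flt3 KO mice and −0.13 ± 0.10 in WT mice, neither called. Only the difference in Flt3L KO mice was called, at −0.28 ± 0.10 (limma adjusted p = 0.0466). That call was lost when dim genes were kept in the test (limma adjusted p = 0.0634) and in 3 of the 4 fits that left out 1 of the arrays compared.

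Notch4, a receptor otherwise known from endothelium, was the member most strongly lower in cDC2. Its value rests on 1 probe set, and 6 further probe sets that list Notch4 with other symbols were not used. It read 88.0 and 67.8 in Flt3 KO cDC2, 103 and 95.8 in Flt3L KO cDC2, and 119 and 93.6 in WT cDC2. Its cDC1 arrays gave 306 and 297 in Flt3 KO mice, 319 and 362 in Flt3L KO mice, and 317 and 287 in WT mice. No cDC2 array reached a cDC1 array. The log2 difference, cDC2 minus cDC1, was −1.96 ± 0.13 in Flt3 KO mice (limma adjusted p = 9.03e-08), −1.78 ± 0.13 in Flt3L KO mice (2.62e-07) and −1.52 ± 0.13 in WT mice (1.04e-06). The 12 genes of an endothelial list summed to 828 to 979 on cDC2 arrays and 953 to 1037 on cDC1 arrays. Of its 9 tested genes, 2 were called higher and 2 lower in cDC2 in Flt3 KO mice, 2 higher and 2 lower in Flt3L KO mice, and 1 higher and 3 lower in WT mice. Flt1, a VEGF receptor gene, was lower in cDC2 in all 3 genotypes, as Notch4 was: it averaged 50.8, 61.0 and 57.8 in Flt3 KO, Flt3L KO and WT cDC2, against 233, 177 and 221 in cDC1 of the same genotypes. Vwf was also lower in all 3 and Pecam1 higher in all 3. Cdh5 had group means of 47.8 to 56.2, under the array medians of 59 to 63. The part of endothelial RNA in the Notch4 difference was not tested.

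Adam10, whose product sheds the outer part of the receptors, read 413 and 425 in Flt3 KO cDC2, 399.9 and 358 in Flt3L KO cDC2, and 458 and 468 in WT cDC2. The cDC1 arrays gave 386 and 394 in Flt3 KO mice, 321 and 365 in Flt3L KO mice, and 355 and 402 in WT mice. The cell types overlapped in Flt3L KO mice only. The difference was called in WT mice, at 0.29 ± 0.09 (limma adjusted p = 0.0228), and not in Flt3 KO mice (0.10 ± 0.09) or Flt3L KO mice (0.14 ± 0.09). The WT call was kept in 1 of the 4 fits that left out an array compared. Without replicate 1 of WT cDC1, the array that stood apart, the difference was 0.20 (limma adjusted p = 0.163).

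Rbpj, the DNA-binding partner of all Notch receptors, was lower in cDC2. It read 671 and 708 in Flt3 KO cDC2, 511 and 544 in Flt3L KO cDC2, and 688 and 721 in WT cDC2. In cDC1 it read 943 and 963 in Flt3 KO mice, 847 and 927 in Flt3L KO mice, and 864 and 928 in WT mice. Every cDC2 array was below every cDC1 array. The differences were −0.47 ± 0.08 in Flt3 KO mice (limma adjusted p = 0.00045), −0.75 ± 0.08 in Flt3L KO mice (7.83e-06) and −0.35 ± 0.08 in WT mice (0.00377). All 3 were called in each of the 4 fits that left out an array compared.

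The target genes split. Dtx1 encodes Deltex-1, a ubiquitin ligase induced by Notch in lymphocytes, and read 337 and 236 in Flt3 KO cDC2, 309.9 and 319.6 in Flt3L KO cDC2, and 361 and 366 in WT cDC2. Values in cDC1 were 99.9 and 83.0 in Flt3 KO mice, 102 and 125 in Flt3L KO mice, and 86.1 and 88.8 in WT mice. The cell types did not overlap, and the Flt3 KO cDC2 replicates differed more from each other than those of any other group. Dtx1 was higher in cDC2 by 1.63 ± 0.15 in Flt3 KO mice, 1.48 ± 0.15 in Flt3L KO mice and 2.06 ± 0.15 in WT mice, with limma adjusted p of 1.51e-06, 3.92e-06 and 1.57e-07. In WT mice that is a 4.16-fold difference of intensity.

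Hes1, which encodes a repressor of the bHLH class, stayed between 45.2 and 56.2 on all 12 arrays, and every pair of groups compared overlapped. Its difference between the cell types lay between −0.06 and −0.04 in the 3 genotypes, each with an SE of 0.11. Nrarp, which encodes a small feedback inhibitor of Notch, was too dim to be tested, at 20.2 to 31.1 on the 12 arrays. Its readings were 21.7 and 27.6 in Flt3 KO cDC2, 30.5 and 31.0 in Flt3L KO cDC2, and 26.0 and 31.1 in WT cDC2. In cDC1 they were 23.7 and 22.8 in Flt3 KO mice, 24.0 and 20.2 in Flt3L KO mice, and 26.5 and 24.7 in WT mice. These lie around the arrays' lower quartiles of 23.3 to 25.7. With dim genes kept in the test, Nrarp was higher in cDC2 of Flt3L KO mice by 0.48 ± 0.12 (limma adjusted p = 0.0097) and was not called in the other genotypes (0.07 in Flt3 KO mice and 0.15 in WT mice). Whether it rises above background there was not tested.

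Both ESAM-high markers were higher in cDC2 in all 3 genotypes. Esam, an adhesion molecule of the immunoglobulin family, read 145 and 155 in Flt3 KO cDC2, 142 and 137 in Flt3L KO cDC2, and 143 and 130.2 in WT cDC2. In cDC1 it read 63.1 and 68.1 in Flt3 KO mice, 76.6 and 63.6 in Flt3L KO mice, and 63.9 and 70.4 in WT mice. The lowest cDC2 array was far above the highest cDC1 array. The difference was 1.19 ± 0.10 in Flt3 KO mice, 1.00 ± 0.10 in Flt3L KO mice and 1.02 ± 0.10 in WT mice, with limma adjusted p of 6.94e-07, 3.87e-06 and 2.81e-06.

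Cd4, whose product is a coreceptor on T cells and a surface marker of many mouse splenic cDC2, read 665 and 676 in Flt3 KO cDC2, 414 and 500.1 in Flt3L KO cDC2, and 618 and 591 in WT cDC2. Values in cDC1 were 57.7 and 66.4 in Flt3 KO mice, 59.9 and 65.9 in Flt3L KO mice, and 82.2 and 75.8 in WT mice. No cDC1 array came near a cDC2 array. Cd4 was higher in cDC2 by 3.44 ± 0.10 in Flt3 KO mice, 2.86 ± 0.10 in Flt3L KO mice and 2.94 ± 0.10 in WT mice, which are 10.8-fold, 7.24-fold and 7.66-fold differences of intensity. The limma adjusted p was 5.98e-11, 3.23e-10 and 1.85e-10. The T cell list (10 of 12 genes with a value) summed to 637 to 707 on cDC2 arrays and 587 to 649 on cDC1 arrays, and 3 of its genes were under the lower quartile on every array. Of its 7 tested genes, 1 was called lower in cDC2 in Flt3 KO mice (Cd6), and 1 higher in Flt3L KO and in WT mice (Cd5). Cd5 averaged 250.5, 263 and 304 in Flt3 KO, Flt3L KO and WT cDC2, against 219, 204 and 235 in cDC1 of the same genotypes. Cd3g had group means of 14.8 to 16.5 over both cell types, Cd3d of 27.9 to 33.8 and Cd3e of 65.2 to 78.1. The part of T cell RNA in the Cd4 difference was not tested.

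**Figure D2:**
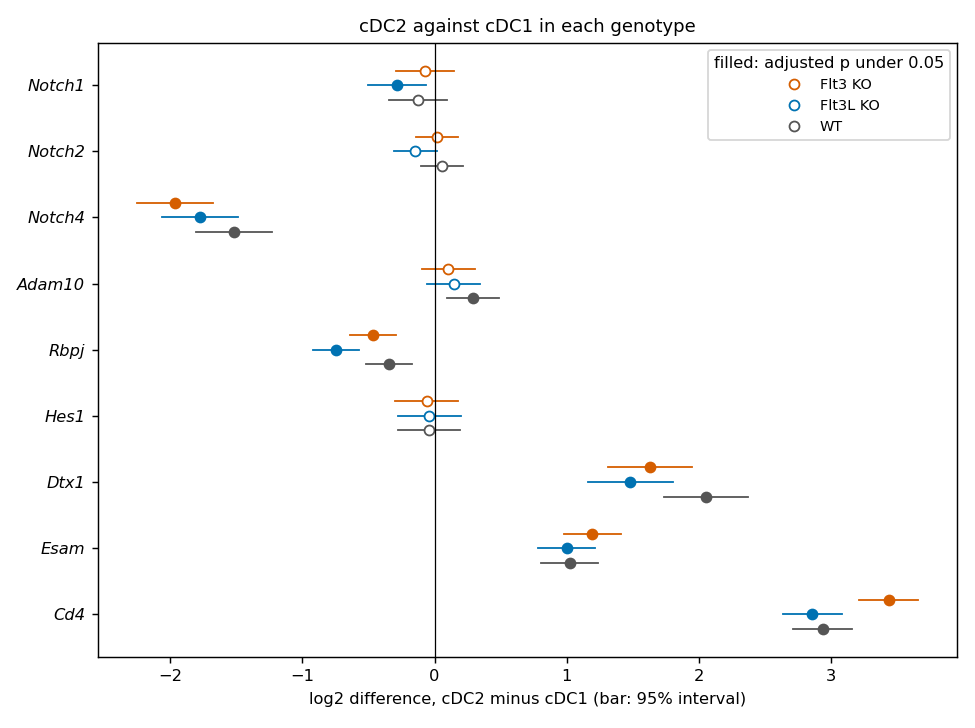
Log2 difference, cDC2 minus cDC1, of the 9 tested members in each genotype (points; bars are 95% intervals from limma), with filled points called. Cd4, Dtx1 and Esam were above 0 and Notch4 and Rbpj below 0 in all 3 genotypes.

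Set against WT, the members gave 1 call in 36 tests: Rbpj was lower in cDC2 of Flt3L KO mice. Both knockouts share the WT arrays of a cell type, so their values are given side by side and not as repeats of one another. Against WT, limma called 0 of the 9 members in Flt3 KO cDC2 (0.107% of all genes; 2 members had an unadjusted p under 0.05) and 0 in Flt3 KO cDC1 (0.0803% of all genes; 1 member). It called 0 in Flt3L KO cDC1 (1.19% of all genes; 3 members) and 1, Rbpj, in Flt3L KO cDC2 (1.95% of all genes, 0.91% lower; 3 members with an unadjusted p under 0.05).

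Rbpj fell in cDC2 of Flt3L KO mice, by 0.42 on the log2 scale with an SE of 0.08 (limma adjusted p = 0.0195). As given above, its Flt3L KO cDC2 arrays read 511 and 544 and its WT cDC2 arrays 688 and 721, without overlap. In Flt3 KO cDC2 the difference from WT cDC2 was −0.03 ± 0.08. In cDC1 the differences from WT were 0.09 ± 0.08 (Flt3 KO) and −0.02 ± 0.08 (Flt3L KO). The Flt3L KO effect was lower in cDC2 than in cDC1 by 0.40 ± 0.11, a test of the difference that did not pass (limma adjusted p = 0.15). The Rbpj call did not survive the loss of any 1 of the 4 arrays compared (limma adjusted p of 0.0559 to 0.186, differences of −0.46 to −0.37). It was also lost when both Rbpj probe sets were averaged, where the difference was −0.20 (limma adjusted p = 0.298). The other probe set was dim, with group means of 18.0 to 22.2.

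Cd4 had the smallest p after Rbpj in Flt3L KO cDC2. Its Flt3L KO cDC2 arrays, at 414 and 500.1, were below both WT cDC2 arrays, a difference of −0.41 ± 0.10 that missed the threshold (limma adjusted p = 0.0655). Its Flt3 KO cDC2 arrays were above the WT cDC2 arrays by 0.15 ± 0.10. In cDC1, Cd4 was dimmer in both knockouts than in WT, with differences of −0.35 ± 0.10 in Flt3 KO mice and −0.33 ± 0.10 in Flt3L KO mice, and neither was called (limma adjusted p = 0.261 and 0.134). Esam did not follow it: against WT, cDC2 differed by 0.14 ± 0.10 in Flt3 KO mice and 0.03 ± 0.10 in Flt3L KO mice, and the 95% interval in Flt3L KO cDC2 ran from −0.18 to 0.25.

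The remaining members gave these differences from WT in cDC2. Notch4 differed by −0.45 ± 0.13 in Flt3 KO (limma adjusted p = 0.375) and −0.09 ± 0.13 in Flt3L KO. Dtx1 differed by −0.36 ± 0.15 in Flt3 KO (limma adjusted p = 0.591) and −0.21 ± 0.15 in Flt3L KO. Adam10 differed by −0.14 ± 0.09 in Flt3 KO and −0.29 ± 0.09 in Flt3L KO (limma adjusted p = 0.145). These 3 genes averaged below WT in both knockouts with no call. Both knockouts were set against the same 2 WT arrays, so the shared direction is not a repeat. Notch2 also averaged below WT with no call, with differences of −0.07 ± 0.07 in Flt3 KO and −0.10 ± 0.07 in Flt3L KO. Notch1 and Hes1 differed by −0.03 to 0.09 in either knockout. In cDC1 the differences from WT were at most 0.06 in size for these 6 genes in Flt3 KO. In Flt3L KO they were largest for Dtx1 (0.37 ± 0.15, limma adjusted p = 0.229) and Notch1 (0.23 ± 0.10, limma adjusted p = 0.26).

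**Figure D3:**
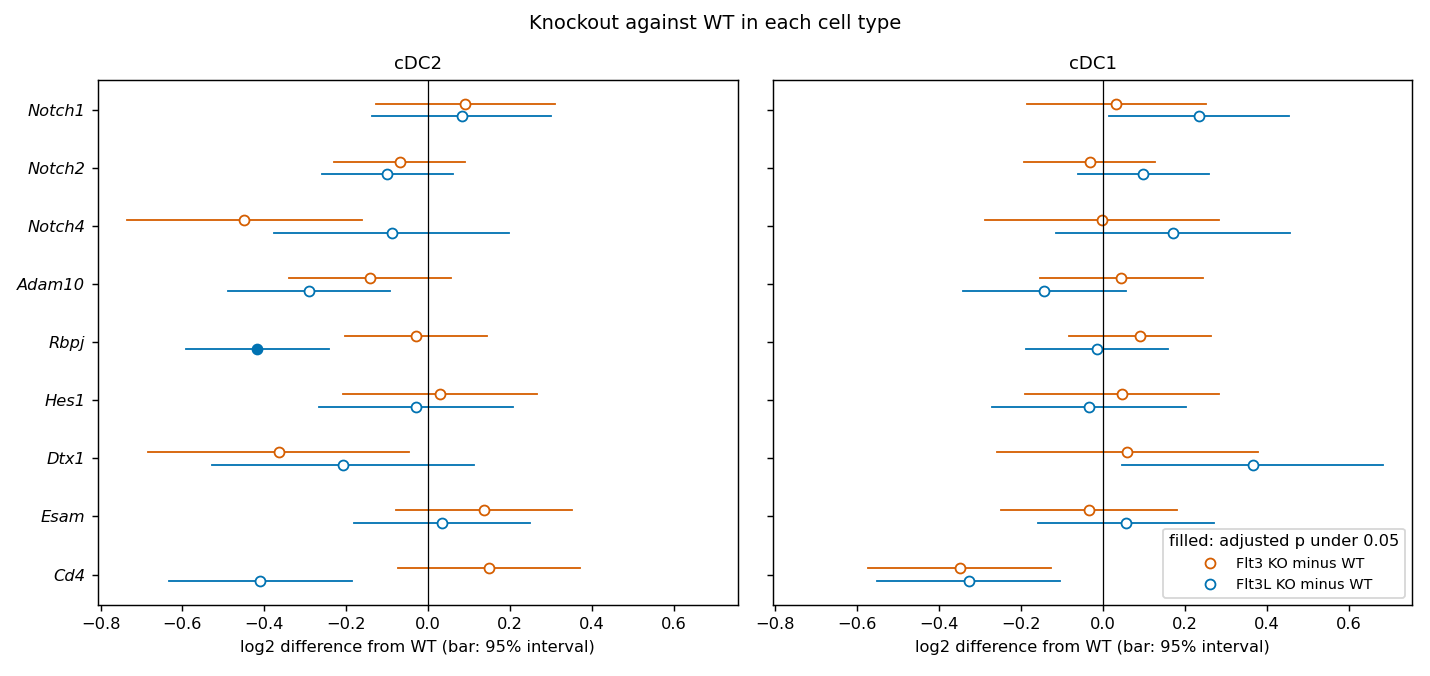
Log2 difference from WT of the 9 tested members in cDC2 (left) and cDC1 (right), for Flt3 KO and Flt3L KO mice (points; bars are 95% intervals from limma). The filled point, Rbpj in Flt3L KO cDC2 at −0.42, was the only call among 36.

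The knockouts were also compared with each other. In cDC2, limma called 2 of the 9 members lower in Flt3L KO than in Flt3 KO mice (0.93% of all genes were called, 0.468% lower). The difference was −0.56 ± 0.10 for Cd4 (limma adjusted p = 0.0279) and −0.39 ± 0.08 for Rbpj (limma adjusted p = 0.0443), both without overlap of the arrays. The Cd4 call was kept in 1 of the 4 fits that left out an array compared and the Rbpj call in 0. In cDC1, 0 members were called (0.883% of all genes; 0 members had an unadjusted p under 0.05). The tests of whether a knockout effect differed between the cell types called 0 members for Flt3 KO (0% of all genes; 2 members with an unadjusted p under 0.05) and 0 for Flt3L KO (0.495% of all genes; 2 members).

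The wider Notch pathway was read from 62 genes in 8 lists by role, with a value for 60 and a test for 58. In WT mice, 15 were called higher and 16 lower in cDC2 than in cDC1, with a median difference of −0.04 against −0.07 over all genes tested. The counts were 12 higher and 14 lower in Flt3 KO mice, beside 16.4% and 19.1% of all genes (35.5% either way). In Flt3L KO mice they were 10 higher and 15 lower, beside 15.9% and 18.9% of all genes (34.8% either way). The share called in WT mice was above that of all genes (39.4%), with calls in both directions in every list but the receptors and the targets. The lists were chosen with earlier results of these data known, and the difference in share was not tested.

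Among ligands, Jag2 was lower in WT cDC2 (−0.83 ± 0.10), Jag1 higher (0.50 ± 0.09) and Dll1 lower (−0.30 ± 0.10), with 6 ligand genes tested. Of 8 genes for receptor cleavage, 4 were lower and 1, Adam10, higher in WT cDC2. The lower ones included the gamma-secretase subunit genes Aph1a (−0.77 ± 0.07), Psen2 (−0.83 ± 0.10) and Aph1b (−0.60 ± 0.09). Of 5 glycosylation genes, whose products add sugars to the receptors, 2 were higher and 2 lower. Poglut1 (−1.23 ± 0.09) and Rfng (−0.32 ± 0.09) were lower and the Fringe gene Lfng (0.40 ± 0.11) was among the higher ones. The calls of Dll1, Lfng and Rfng were lost under at least 1 alternative setting or left-out array.

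Among 7 genes of the transcription complex, 3 were higher and 3 lower in WT cDC2. Maml3, a coactivator of the Mastermind family, was higher by 1.46 ± 0.11 and averaged 217 ± 9.26 in WT cDC2 and 78.9 ± 4.27 in WT cDC1 (SD, n = 2 arrays each). Maml1 was higher (0.50 ± 0.09) and the acetyltransferase gene Kat2b lower (−0.80 ± 0.09). Of 7 corepressor genes, Ctbp2 was lower (−0.89 ± 0.09) and Tle3 (0.65 ± 0.08) and Tle1 (0.50 ± 0.11) were higher.

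Of 8 tested target genes, 3 were called higher in cDC2 and 0 lower in each genotype, a share near that of all genes called either way (35.5% in Flt3 KO, 34.8% in Flt3L KO and 39.4% in WT mice). Besides Dtx1 these were in WT mice Myc (1.18 ± 0.11), the growth regulator, and Il2ra (0.46 ± 0.09), the alpha chain of the IL-2 receptor; the median of the 8 was −0.03. Of 13 genes for turnover and trafficking, 3 were higher and 3 lower in WT cDC2. The ubiquitin ligase gene Neurl3 was higher by 1.41 ± 0.09, and Dtx4, a relative of Dtx1, was lower by 1.08 on the log2 scale (SE 0.09), as was Dtx2 (−0.26 ± 0.08), a call lost under at least 1 alternative.

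**Figure D4:**
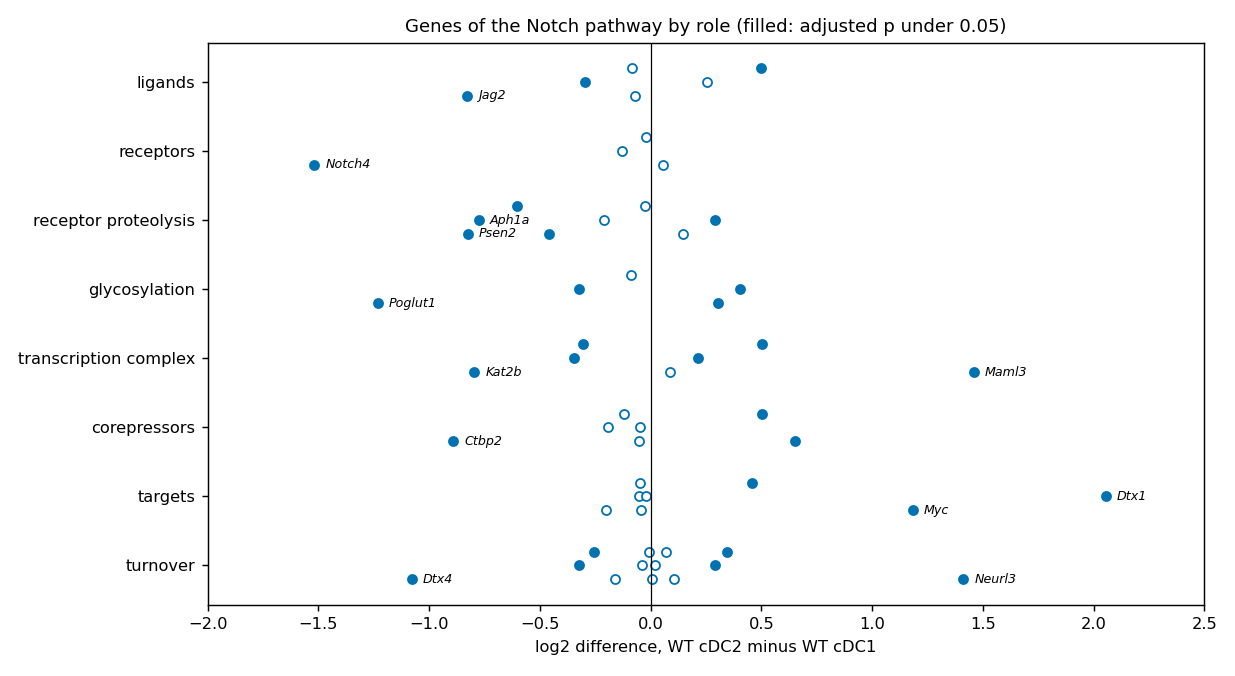
Log2 difference, WT cDC2 minus WT cDC1, of the 58 tested Notch pathway genes in rows by role (points; filled where called by limma). Dtx1 at 2.06 and Notch4 at −1.52 lay at the ends of the range, and Dtx4 at −1.08 lay opposite to Dtx1.

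Against WT, 0.107% of all genes were called in Flt3 KO cDC2 and 1.95% in Flt3L KO cDC2. In cDC1 the shares were 0.0803% in Flt3 KO and 1.19% in Flt3L KO. Of the 58 pathway genes, 2 were called in any of these groups. They were Rbpj, above, and Jag1, a ligand gene, which rose in Flt3L KO cDC1. Jag1 averaged 147 ± 21.1 in Flt3L KO cDC1 and 96.6 ± 2.66 in WT cDC1 (SD, n = 2 arrays each), a difference of 0.60 ± 0.09 (SE; limma adjusted p = 0.00913) that was kept in 3 of the 4 fits without an array compared. In Flt3 KO cDC1 it averaged 104 ± 1.92, and the Flt3L KO cells were above these too, by 0.48 ± 0.09 (limma adjusted p = 0.0327, kept in 1 of 4 such fits). In cDC2 it averaged 129.9 ± 0.211 in Flt3L KO mice and 137 ± 2.84 in WT mice. The Flt3L KO effect on Jag1 was lower in cDC2 than in cDC1 by 0.67 ± 0.13 (limma adjusted p = 0.0448), a call kept in 2 of 8 fits that left out an array compared. In Flt3L KO mice, the difference between cDC2 and cDC1 was −0.17 ± 0.09 and was not called.

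Genes that mark ESAM-high cDC2 were set beside genes reported for ESAM-low cDC2, which share features with monocytes. Both lists came from general knowledge and overlap with what earlier results of these data had shown. Of 10 tested ESAM-high genes, 6 were higher and 1 lower in WT cDC2 than in WT cDC1, with a median of 1.01. Of all genes, 18.4% were called higher and 21% lower in this comparison (39.4% either way). The members Esam, Cd4 and Dtx1 were among the higher ones, and the lower one was Jaml, which averaged 341 in WT cDC2 and 837 in WT cDC1. Clec4a4, which encodes the cDC2 lectin DCIR2, was higher by 4.87 ± 0.13, and Tbx21, which encodes the transcription factor T-bet, by 2.54 ± 0.15. Of 15 ESAM-low genes, 10 were higher and 3 lower in WT cDC2, beside the same shares of all genes, with a median of 1.84. The smallest p-values belonged to Clec4a1 (4.23 ± 0.10), Cd36 (−4.32 ± 0.10), Csf1r (3.54 ± 0.09) and Cd209a (3.70 ± 0.13).

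Against WT, more of the ESAM-low genes than of the ESAM-high genes were called in Flt3L KO cDC2, while Flt3 KO cDC2 gave 1 call over both lists. Of all genes tested, 1.95% were called in Flt3L KO cDC2 and 0.107% in Flt3 KO cDC2. In Flt3L KO cDC2, 1 ESAM-high gene of 10 fell and 0 rose (median −0.08), and 4 ESAM-low genes of 15 rose and 1 fell (median 0.30, against 0.02 over all genes). In Flt3 KO cDC2, 0 ESAM-high genes were called (median −0.06) and 1 ESAM-low gene rose (median 0.34, against 0.01 over all genes). The difference between the lists was not tested.

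The ESAM-high gene that fell was Clec4a4, which averaged 221 ± 0.757 in Flt3L KO cDC2, 294 ± 0.85 in Flt3 KO cDC2 and 359 ± 38.5 in WT cDC2 (SD, n = 2 arrays each). The difference between Flt3L KO and WT was −0.70 ± 0.13 (SE; limma adjusted p = 0.0185) and was kept in 0 of the 4 fits that left out an array compared, with adjusted p of 0.0569 to 0.198. In cDC1 the ESAM-high gene Relb, a subunit of NF-kB, rose in Flt3L KO mice by 0.50 ± 0.08 (limma adjusted p = 0.013), kept in 2 of 4 such fits.

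Of the ESAM-low genes, Cd36, a scavenger receptor gene, rose in Flt3L KO cDC2 by 1.30 ± 0.10 (limma adjusted p = 7.11e-05) and averaged 134 ± 13.7 there, 68.1 ± 6.8 in Flt3 KO cDC2 and 54.4 ± 4.7 in WT cDC2. Fcgr3, an Fc receptor gene, rose by 0.84 ± 0.08 (limma adjusted p = 0.000338), and Lyz2, the lysozyme gene of myeloid cells, by 0.75 ± 0.09 (limma adjusted p = 0.00141). Cd209a, which encodes a C-type lectin related to DC-SIGN, fell by 0.98 on the log2 scale (SE 0.13; limma adjusted p = 0.00251). These 4 calls were kept in every fit that left out 1 of the 4 arrays compared. Csf3r, the G-CSF receptor gene, rose by 0.68 ± 0.11 (limma adjusted p = 0.00845), a call kept in 1 of 4 such fits.

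Lyz2 was the ESAM-low gene that rose in Flt3 KO cDC2, by 0.74 ± 0.09 (limma adjusted p = 0.00757), kept in 1 of 4 such fits. In cDC1, Cd209a (0.92 ± 0.13, limma adjusted p = 0.0165) and Tmem176a (0.68 ± 0.11, limma adjusted p = 0.0427) rose in Flt3 KO mice, each kept in 1 of 4 fits. Cd36 fell in Flt3L KO cDC1 by 0.52 on the log2 scale (SE 0.10; limma adjusted p = 0.0381), kept in 0 of 4 fits.

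Markers of other cells moved in the same groups as these genes. Of the 9 cDC1 markers, 2 were called higher and 0 lower than WT in Flt3L KO cDC2, and 0 either way in Flt3 KO cDC2. They summed to 6005 to 6022 in Flt3 KO cDC2, 5546 to 5628 in Flt3L KO cDC2 and 5823 to 6027 in WT cDC2. Most of each sum was Wdfy4, which averaged 4342, 3995 and 4580 in these groups, so the sums mainly follow that gene. The next brightest markers moved otherwise: Irf8 averaged 407, 420 and 293, and Clec9a 230, 141 and 162. Of the ESAM-low genes that rose, Lyz2 averaged 1249 in WT cDC1 and 726 in WT cDC2, and Cd36 was also higher in WT cDC1. The 12 macrophage genes summed to 2214 to 2252 in Flt3 KO cDC2, 2945 to 3389 in Flt3L KO cDC2 and 1956 to 1960.2 in WT cDC2. Of its 11 tested genes, 2 rose and 0 fell in Flt3 KO cDC2, and 7 rose and 1 fell in Flt3L KO cDC2. C1qa, a complement gene, averaged 322 ± 59.0, 679 ± 156 and 146 ± 15.0 in these groups (SD, n = 2 arrays each). The gene that fell was Adgre1, which encodes the macrophage marker F4/80 and averaged 823 ± 115 in Flt3 KO, 609 ± 11.1 in Flt3L KO and 969 ± 37.6 in WT cDC2. The 8 monocyte genes with a value, 1 of them (Ccr2) also on the ESAM-low list, summed to 916 to 1158 in Flt3 KO cDC2, 1448 to 1737 in Flt3L KO cDC2 and 951 to 1110.0 in WT cDC2. On cDC1 arrays they summed to 2239 to 2411 in Flt3 KO, 1690 to 1979 in Flt3L KO and 2330 to 2469 in WT mice. Treml4 averaged 621 in Flt3L KO cDC2 and 378 in WT cDC2, against 1477 and 2034 in cDC1 of these genotypes. Ace averaged 643 in Flt3L KO cDC2 and 346 in WT cDC2, and Ccr2 113 and 117. In sorted bulk samples a change in the mix of cells and a change within each cell cannot be told apart, and their part in the changes of Rbpj, Clec4a4 and the ESAM-low genes was not tested.

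**Figure D5:**
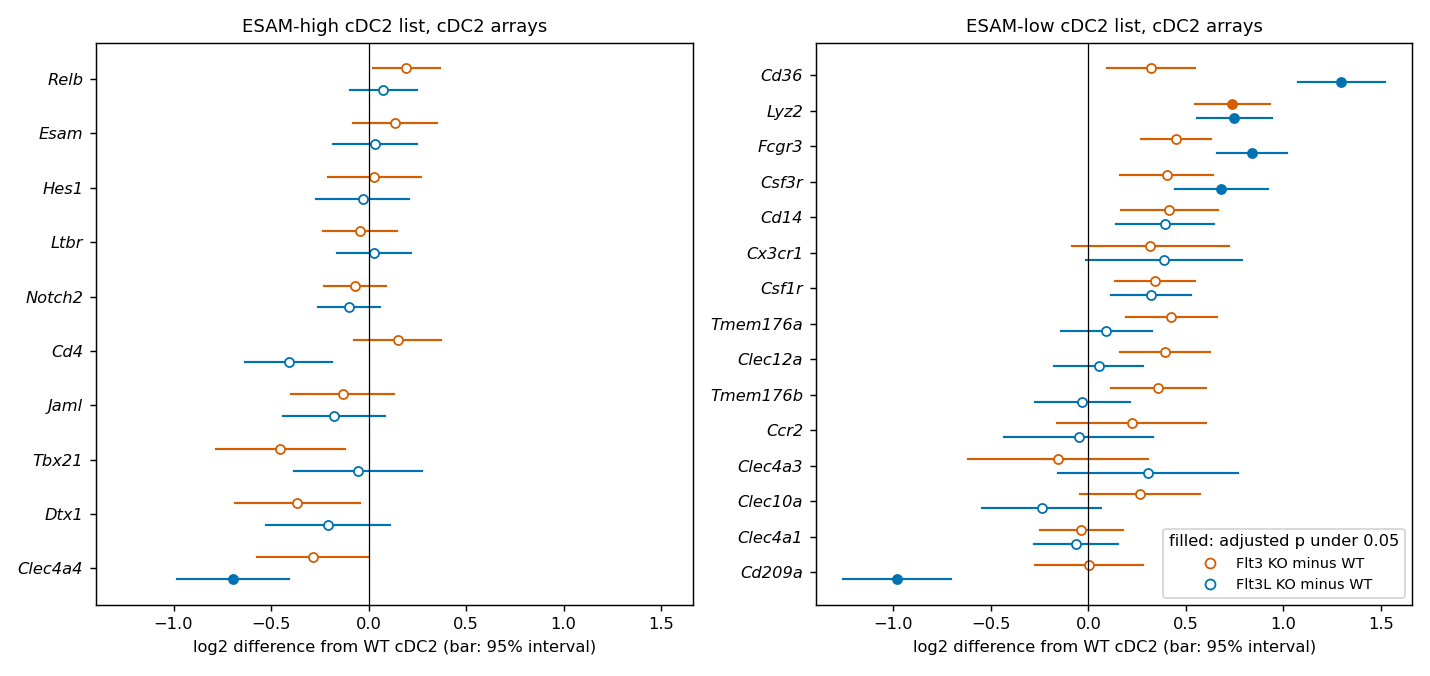
Log2 difference from WT cDC2 of the 10 tested ESAM-high genes (left) and the 15 ESAM-low genes (right), for Flt3 KO and Flt3L KO cDC2 (points; bars are 95% intervals from limma; filled where called). Cd36 at 1.30 and Cd209a at −0.98 in Flt3L KO were the extremes, and Clec4a4 at −0.70 was the only call on the left.

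The genes with patterns most like Esam, Cd4 and Dtx1 over the 12 arrays were listed by Pearson correlation of log2 intensity, a description that mainly reflects the gap between cDC2 and cDC1. For Esam they were Slc2a1 (r = 0.993), Zeb2 (0.992) and Lrp1 (0.992), and over the 6 cDC2 arrays alone their r was 0.702, 0.434 and 0.716. For Cd4 they were Dab2ip (0.996), Ceacam16 (0.996) and Adgre1 (0.995), and over the 6 cDC2 arrays alone their r was 0.934, 0.879 and 0.757. For Dtx1 they were Elf1 (0.994), Cd22 (0.989) and Ripor2 (0.988), and over the 6 cDC2 arrays alone their r was 0.875, 0.809 and 0.792. Cd22 is also a B cell gene: the 9 B cell genes with a value summed to 934 to 1162 on cDC2 arrays and 500.4 to 572 on cDC1 arrays. Of its 6 tested genes, 4 were called higher and 1, Ms4a1, lower in cDC2 in Flt3 KO mice, 3 higher and 1 lower in Flt3L KO mice, and 4 higher and 1 lower in WT mice. Blk averaged 123, 137 and 135 in Flt3 KO, Flt3L KO and WT cDC2, against 47.0, 48.6 and 52.1 in cDC1, and Cd79b was higher in cDC2 in all 3 genotypes as well. Cd79a had group means of 14.3 to 17.9. The part of B cell RNA in the Dtx1 difference was not tested.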

How the data were processed

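The deposited table holds intensities on a linear scale for 30177 probe sets on 12 arrays, used as the authors deposited them; the summarisation and normalization are not given in the sources used here. Per the labels' protocols, RNA was amplified with the Ambion WT Expression kit and labelled with a GeneChip WT kit. No column was left unused (0), and detection calls were not used here. Groups came from the sample labels. With 2 arrays a group, precision is limited by their number.

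Probe sets with exactly 1 symbol (21789) were kept, with the highest mean for the 999 genes that had several. Symbols were checked by Entrez ID and 0 were changed. Of 19938 genes, the dimmest share of 0.25 by mean was left out, which removed Nrarp. Log2 intensities were fitted with 1 mean per group (6 residual degrees of freedom) in limma 3.58.1 under R 4.3.3, for 11 comparisons, with Benjamini-Hochberg adjustment over 14953 genes. The script was tested on simulated data. Alternatives were quantile normalization, the dim-gene filter, the variance prior, the mean of probe sets, only the arrays compared, a replicate block, and each array left out.

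The members and lists were chosen with earlier results of these data known. Besides the members, the text names pathway, ESAM-high and ESAM-low genes called in a knockout comparison, and per list those with the smallest p between WT cell types (up to 3, or 4 for the ESAM lists). It also names the 3 genes most correlated with Esam, Cd4 and Dtx1, and, chosen after their values were seen, some markers of other cells. Promoter sequences are from RefSeq.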

Additional observations from a re-analysis of the deposited data

Results flagged for a closer look

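For 5 genes of the ESAM-low and pathway lists, and 0 members, the Flt3L KO effect differed between cDC2 and cDC1 by the test of that difference in limma (cDC2 minus cDC1 on the log2 scale). The difference was 1.82 for Cd36 (adjusted p = 0.000317), 1.08 for Lyz2 (0.00621), 0.85 for Cd14 (0.0448), −0.67 for Jag1 (0.0448) and −1.19 for Cd209a (0.0133). Cd36 and Lyz2 kept the call in all 8 fits that left out an array compared, Cd209a in 5, Cd14 in 3 and Jag1 in 2.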

How the results depend on the processing

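The 99 results of single members were recomputed under alternative settings or without an array, which gave 1870 values. Of these, 1830 kept their side of the threshold, 34 lost a call, 6 gained one and 0 called values changed sign. Another 62 values that passed in neither setting changed sign, none above 0.16 in size. The cDC2 and cDC1 differences of Cd4, Dtx1, Esam, Notch4 and Rbpj were called in all of them. The calls that moved were Adam10 in WT, Notch1 in Flt3L KO, and Rbpj and Cd4 in Flt3L KO cDC2. Rbpj also gained a call in the test of whether the Flt3L KO effect differed between the cell types. Of 1249 values of other pathway and ESAM genes, 126 lost a call and 0 reversed. The causes of these changes were not tested.

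Members called in Flt3L KO against WT in cDC2 were 1, and became 2 with a share of 0.5 left out or a trended prior and 0 with the mean of probe sets. Those called in Flt3L KO against Flt3 KO in cDC2 were 2, and 1 with no filter, the mean of probe sets or only the arrays compared. The Flt3L KO difference of effects became 1 (Rbpj) with the trended prior. Without 1 array, the first 2 counts ranged from 0 to 2: the first was 0 without either WT cDC2 replicate or Flt3L KO cDC2 replicate 1, and 2 without either WT cDC1 replicate.

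Genes called in Flt3 KO cDC1 (12) became 22 with a share of 0.5 left out, 35 with the trended prior, 7 with the mean of probe sets and 3 with only the arrays compared; without 1 array they ranged from 3 to 1132, with 1132 reached without WT cDC1 replicate 2. In Flt3 KO cDC2 (16) they became 10 with no filter, 9 with 0.5 left out and 36 with the trended prior (range 2 to 21). In Flt3L KO cDC1 (178) under the same order of settings (no filter, 0.5 left out, trended prior, only the arrays compared) they became 98, 363, 545 and 6 (range 25 to 606, the highest again without WT cDC1 replicate 2), and in Flt3L KO cDC2 (291) 487 with the trended prior (range 72 to 484). Flt3L KO against Flt3 KO gave 86, 267, 401 and 78 in cDC1 (132; range 16 to 349) and, with the trended prior, 268 in cDC2 (139; range 8 to 224). Differences of effects gave 5 for Flt3 KO with the trended prior (0; range 0 to 170) and, with 0.5 left out, the trended prior and only the arrays compared, 118, 208 and 37 for Flt3L KO (74; range 20 to 484). Genes called between cell types without 1 array ranged from 4110 to 5696 in Flt3 KO, 4019 to 5637 in Flt3L KO and 4456 to 6520 in WT, and members from 5 to 6.

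Equal replicate numbers were not taken as pairs. Each gene's deviation from its group mean was correlated, over genes, between same-numbered arrays. The correlation was 0.09 to 0.16 between the cell types of a genotype and −0.17 to −0.08 between a knockout and WT. With the number as a replicate block, genes called in Flt3L KO cDC1 were 118, and no other count of genes or members moved by over 1.5 times. With crossed numbers, chosen after seeing the data, the counts were 20 and 281 in Flt3 KO and Flt3L KO cDC1, and 2 members were called in Flt3L KO cDC2.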
